A study of Mus musculus with 9 samples.

Results

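The Hes and Hey genes encode the basic helix-loop-helix repressors through which Notch signaling acts, and their open chromatin was examined in the heart-forming tissue of the early mouse embryo. The 7 genes were Hes1, Hes5, Hes6, Hes7, Hey1, Hey2 and Heyl, and each accessible region whose assigned gene symbol was one of these names was counted as a member. Of 17164 distinct regions in the list, 11 were members (12 of 17432 rows, since 1 region was listed 2 times), and they were assigned to 5 of the 7 genes.

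The libraries were made to learn how chromatin opening in cardiac progenitors depends on Isl1, a LIM-homeodomain transcription factor, and on the chromatin remodeling ATPase Brg1. ATAC-Seq, which marks accessible DNA by the insertions of a transposase, was performed on dissected pharyngeal mesoderm and hearts at embryonic day 8.75 (6 somites), with 3 libraries from wild-type (wt) embryos, 3 from Isl1-/- embryos and 3 from Isl1Cre+/-/ Brg1fl/fl embryos, in which Brg1 recombination is limited to cells that have expressed Isl1. The values analyzed here were 1 list of regions common to the 3 wild-type libraries, in mm9 coordinates, without a height or a value per library. The Isl1-/- and Isl1Cre+/-/ Brg1fl/fl libraries were not analyzed here. Since the list gives no value per library, no value below has a replicate error and no test between samples was possible. Read depth is unknown.

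In the Notch pathway, a ligand on one cell triggers cleavage of the receptor on its neighbor, and the released intracellular domain enters the nucleus, where it joins the DNA-binding protein Rbpj and a Maml coactivator at target genes. Hes and Hey genes are the classical targets, and their products repress transcription, those of Hes genes in part by recruiting corepressors of the Tle family. Hey1 and Hey2 are known for dividing the developing heart into atrial and ventricular territories and for the atrioventricular boundary, Hes1 for progenitor maintenance in many tissues, including the second heart field, Hes5 for neural progenitors, and Hes7 for the segmentation clock of the presomitic mesoderm. Hes6 differs from the others in counteracting Hes1, and Heyl is best known from vascular smooth muscle.

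The sequences below show where the core letters bound by Rbpj, GTGGGAA, occurred at genes of this family. The first set is the sequence upstream of the RefSeq start of 3 genes, matched to the mm9 build, written 5′ to 3′ on the strand of the gene and ended before the first annotated transcribed base. Capitals mark GTGGGAA or its complement on either strand. Hes5 is on the plus strand of chr4:154334782-154335031, Hes7 on the plus strand of chr11:68933705-68933905 and Hey2 on the minus strand of chr10:30562608-30562839.
Hes5 upstream: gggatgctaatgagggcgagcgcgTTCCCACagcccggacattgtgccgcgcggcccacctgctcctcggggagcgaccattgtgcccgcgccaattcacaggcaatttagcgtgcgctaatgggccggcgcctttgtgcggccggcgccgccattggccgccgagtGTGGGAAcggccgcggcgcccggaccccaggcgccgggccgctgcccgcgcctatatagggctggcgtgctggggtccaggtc
Hes7 upstream: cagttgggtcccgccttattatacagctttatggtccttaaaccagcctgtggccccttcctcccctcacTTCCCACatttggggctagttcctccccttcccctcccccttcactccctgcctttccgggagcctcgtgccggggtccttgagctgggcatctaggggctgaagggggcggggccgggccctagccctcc
Hey2 upstream: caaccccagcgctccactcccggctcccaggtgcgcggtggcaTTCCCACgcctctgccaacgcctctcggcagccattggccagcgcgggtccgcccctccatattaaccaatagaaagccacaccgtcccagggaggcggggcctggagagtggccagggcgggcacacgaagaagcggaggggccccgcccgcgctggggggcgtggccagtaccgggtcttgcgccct
The Hey2 stretch lay wholly inside an accessible region, whereas no base of the Hes5 or Hes7 stretch did. Promoter sequence from RefSeq (GRCm38.p6) was matched for 4 of the 7 genes, with 1 start each for Hes5, Hes7 and Hey2 and 2 for Hes6, and Hes1, Hey1 and Heyl were not matched.

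The second set is 300 bp at the center of the single accessible region assigned to Hes5, which holds the Rbpj letters, and of the single region assigned to Hes1. They are written on the plus strand of mm9, at chr4:154320502-154320801 for Hes5 and chr16:30129505-30129804 for Hes1. Capitals mark the Rbpj letters in the Hes5 window and, in both windows, CTAATG, a core used by homeodomain proteins of the LIM class, on either strand.
Hes5, 14380 bp upstream: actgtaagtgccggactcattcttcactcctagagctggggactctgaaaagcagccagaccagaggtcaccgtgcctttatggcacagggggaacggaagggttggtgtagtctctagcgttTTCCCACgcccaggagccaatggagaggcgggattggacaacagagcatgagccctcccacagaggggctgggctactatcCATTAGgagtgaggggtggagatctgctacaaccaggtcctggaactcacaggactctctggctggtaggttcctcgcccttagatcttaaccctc
Hes1, 64212 bp downstream: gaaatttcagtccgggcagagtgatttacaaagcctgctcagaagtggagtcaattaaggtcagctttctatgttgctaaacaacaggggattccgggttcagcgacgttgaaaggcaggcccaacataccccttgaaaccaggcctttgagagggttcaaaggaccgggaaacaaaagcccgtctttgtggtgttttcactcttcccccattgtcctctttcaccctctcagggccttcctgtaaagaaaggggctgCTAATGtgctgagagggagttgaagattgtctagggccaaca
Neither window held an exonic base (0 bases in each).

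The family divided into genes with an open start, genes with a distant region only, and genes with no region. Hey1, Hey2 and Hes6 had a region centered within 1 kb of the assigned transcription start site (TSS). Hes1 and Hes5 had a single region each, both more than 10 kb from the TSS, and Hes7 and Heyl had none. Of coding genes with a region, 17.6% likewise had none within 1 kb. The 5 genes with a region made up 71.4% of the family (exact 95% binomial interval 29.0 to 96.3%), compared with 49.3% of all 21031 coding genes. The 3 genes with a region within 1 kb made up 42.9% (interval 9.90 to 81.6%), close to the 40.6% of all coding genes. Intervals cover counting error over genes or regions only.

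**Figure D1:**
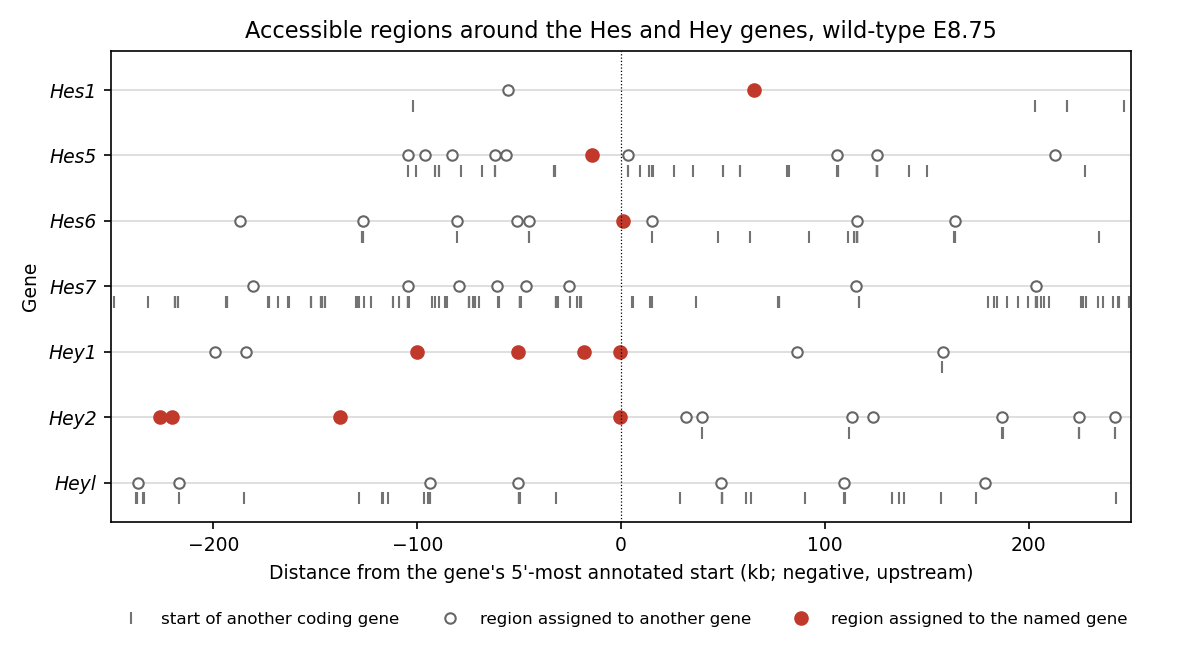
Accessible regions within 250 kb of the 5′-most annotated start of each gene (x axis, kb, negative values upstream; 1 row per gene on the y axis). Filled points are regions assigned to the named gene, open points are regions assigned to another gene and ticks are starts of other coding genes. Hey1 and Hey2 carry 4 filled points each, whereas Hes7 and Heyl carry none.

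Hey1 was assigned 4 regions, and all lay at or upstream of its start. The gene occupies chr3:8663362-8667039 on the minus strand. The promoter region was 1884 bp wide (chr3:8666465-8668348), and it reached 1310 bp upstream and 573 bp downstream of the assigned TSS. It was wider than 86.8% of regions within 1 kb of a TSS, and its CpG content of 8.49 dinucleotides per 100 bp was higher than in 85.9% of them.

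The other 3 Hey1 regions were intergenic and formed a series toward Mrps28, the next coding gene upstream, whose start lay 256879 bp away. The nearest was 1043 bp wide and centered at -18244 bp. A region of 1218 bp followed at -50676 bp. The farthest, at -100022 bp (chr3:8765895-8768226), was also the widest, at 2332 bp, and exceeded 99.2% of the 6740 regions beyond 10 kb of a TSS. This region was listed 2 times, and 204 regions (1.19%) in all were listed more than once. Gaps between neighboring Hey1 regions were 16412, 31302 and 47571 bp, and no region assigned to another gene lay between them.

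Hey2, which is known for its role in the ventricular compact myocardium, was also assigned 4 regions (gene at chr10:30552165-30562607, minus strand). Its promoter region of 3181 bp (chr10:30561704-30564884) was the widest of the family and ranked 79 among all 17164 regions. The region was asymmetric around the assigned TSS, with 2295 bp upstream and 885 bp downstream. Its composition was less extreme than its width. Over the whole region its GC content of 54.7% exceeded that of only 27.1% of regions within 1 kb of a TSS. In the 250 bases upstream of the Hey2 start the GC content was 71.6%.

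The 3 distal Hey2 regions lay far into an intergenic interval that extended 470581 bp upstream to the start of Hddc2. The first, 1495 bp wide, was centered at -137707 bp (chr10:30699549-30701043). The others formed a close pair, 1232 bp wide at -220226 bp (chr10:30782200-30783431) and 472 bp wide at -226195 bp (chr10:30788549-30789020), with 5117 bp between them. The last was the narrowest region of the family, with a width rank of 17128 of 17164, and contained no CpG dinucleotide (0 per 100 bp). Thus Hey2 held regions near both ends of the width distribution. Hey1 and Hey2 together accounted for 8 of the 11 member regions (72.7%).

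Hes6 was assigned 1 region of 1352 bp (chr1:93309145-93310496), centered 21 bp upstream of the assigned TSS. The gene lies at chr1:93308060-93310615 on the minus strand and has 3 annotated starts, of which 2 lay inside the region. The region was of ordinary width for a promoter, wider than 55.9% of those within 1 kb, and its GC content was 63.2%. Its neighbors on either side were promoter regions of Ilkap and Per2.

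Hes1 had no region at its start. The gene occupies chr16:30064470-30067882 on the plus strand, and the region closest to any of its 4 annotated starts was 54923 bp away at its edge and was assigned to 4632428C04Rik. The 1 region assigned to Hes1 (chr16:30129168-30130142) was 975 bp wide and centered 64212 bp downstream of the TSS, between genes. It was the only member region downstream of a start. Within 100 kb of the Hes1 starts the list held 2 regions in all.

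Hes5, at chr4:154335032-154336480 on the plus strand, also lacked a promoter region. Its 1 region (chr4:154320191-154321114) was 924 bp wide and intergenic at -14380 bp, with a GC content of 56.0%, above 91.9% of regions beyond 10 kb. The region closest to a Hes5 start lay 2757 bp away at its edge, and it was assigned to the adjacent gene Pank4, 230 bp from the TSS of that gene. Hes5 therefore had an open promoter of another gene nearby but none of its own in the list.

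No region was assigned to Hes7 or Heyl, and none overlapped either gene. For Hes7 (chr11:68933906-68937557, plus strand) the edge of the closest region was 24739 bp from the start, and that region was assigned to Per1, and the 4 regions within 100 kb were all assigned to other genes. For Heyl (chr4:122910799-122927118, plus strand) the edge of the closest was 42429 bp from a start, in a region assigned to Pabpc4, with 3 regions within 100 kb. Since the list holds only regions found in each of 3 libraries, a missing region does not show closed chromatin. In bulk tissue, fewer cells with an open site and less opening per cell cannot be told apart.

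The distances of member regions from the TSS were set beside those of the whole list. Of the 11, 8 (72.7%, interval 39.0 to 94.0%) were beyond 10 kb of the assigned TSS, compared with 39.3% of all regions, and 3 (27.3%) were within 1 kb, compared with 52.9%. No member region lay between 1 and 10 kb, a class that held only 7.81% of all regions. In total 10 of 11 (90.9%, interval 58.7 to 99.8%) were upstream, compared with 43.8% of all regions, and beyond 10 kb the count was 7 of 8, compared with 44.9%. Regions of 1 gene share a locus, so the 11 are not independent, and the intergenic space is itself uneven. The next coding start lay 157512 bp downstream and 256879 bp upstream of Hey1, and 39694 bp downstream and 470581 bp upstream of Hey2.

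**Figure D2:**
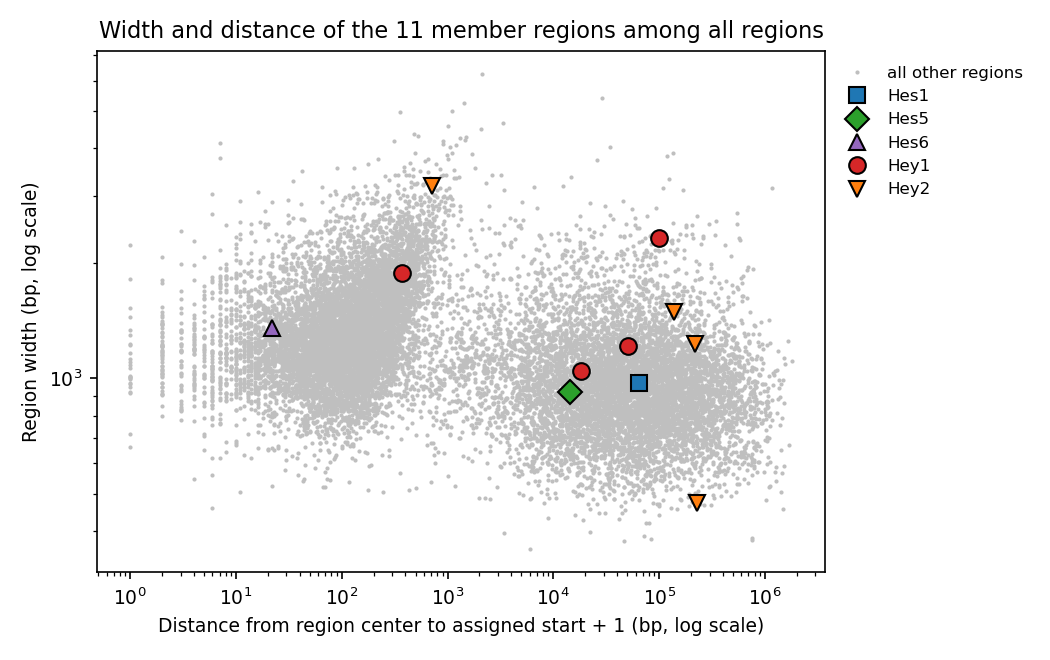
Region width (y axis, bp, log scale) against the distance between its center and the assigned TSS plus 1 bp (x axis, log scale) for all regions (gray) and the 11 member regions (symbols by gene). The Hey2 promoter region at 3181 bp and the Hey1 region of 2332 bp at 100022 bp stand high in the cloud, and the 472 bp Hey2 region stands near its lower edge.

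Widths were compared within distance classes, because regions at starts are wider. The 3 promoter regions measured 1352, 1884 and 3181 bp, compared with a median of 1294 bp and an interquartile range of 1084 to 1612.5 bp in all 9083 regions within 1 kb. The 8 distal regions ranged from 472 to 2332 bp, and their median was 1130.5 bp. All regions beyond 10 kb had a median of 937 bp and an interquartile range of 783 to 1122 bp, in which the Hes1, Hes5 and nearest distal Hey1 regions fell. The other 2 distal Hey1 regions and 2 of the 3 distal Hey2 regions were wider than this range, and the remaining Hey2 region was narrower. Distal member regions had a median GC content of 51.1%, compared with 46.8%, and 1.89 CpG per 100 bp, compared with 1.25. None of these differences has a test, since the list gives no value per library.

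The number of regions per gene was set beside the space available to each gene, measured between the nearest coding starts on either side. Among coding genes with a region, 5.12% had 4 or more, as did 2 of the 5 family members. The interval around Hey1 was 414391 bp and fell in the ninth of 10 classes by size, in which coding genes, counting those without a region, had 1.18 regions on average and 4.59% had 4 or more. The interval around Hey2 was 510275 bp, in the class of largest intervals, in which the mean was 2.14 and 19.3% had 4 or more. Hes1 had an interval of 305225 bp, in the same class as Hey1, but 1 region. The intervals of Hes5, Hes6, Hes7 and Heyl were 35560, 60545, 25374 and 60847 bp, in classes with a mean of 0.37 to 0.46 regions.

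CpG-rich promoters are accessible in most tissues, and the family was therefore placed by the CpG frequency within 500 bp of its starts. Among 18118 coding genes of the GENCODE annotation, the start of 47.5% was within 1 kb of the center of a region. Hey1 had the highest frequency of the family, 10.99 per 100 bp, and was in the highest decile, in which 76.9% of genes had such a region. Hey2 (9.49 per 100 bp), Hes5 (9.59) and Hes1 (8.59) all fell in the ninth decile, in which 74.9% had one. Of these 3 genes of like CpG content, Hey2 had a region at its start and Hes5 and Hes1 did not. Hes6 (7.49) and Heyl (5.99) were in deciles with 71.5% and 69.5%, and Hes7 (3.00) was in the fourth decile, with 36.7%.

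**Figure D3:**
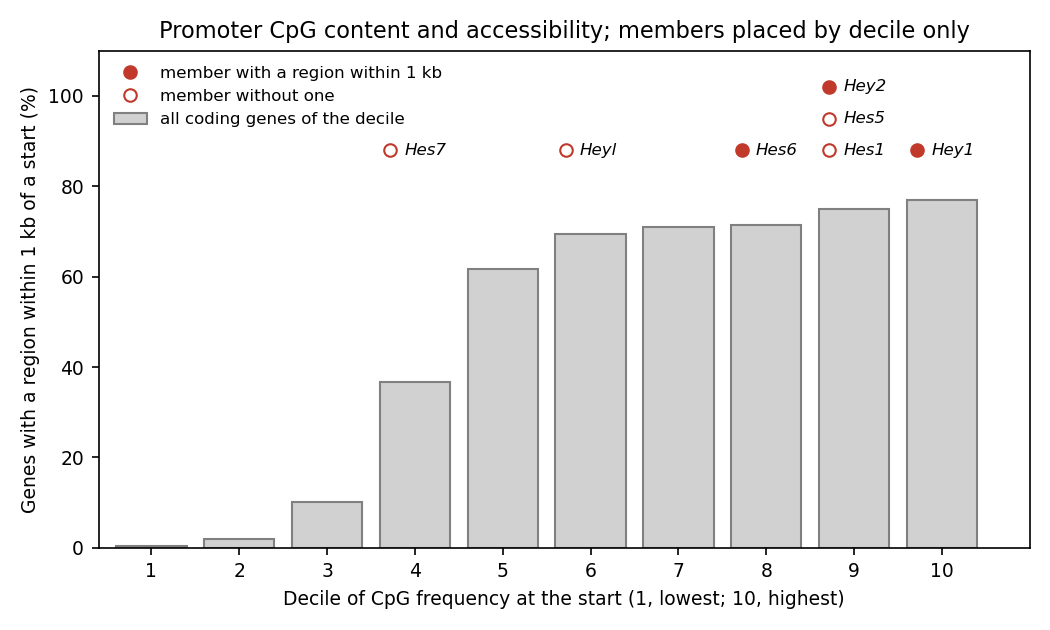
Share of coding genes that have a region within 1 kb (y axis, %) by decile of CpG frequency at the start (x axis, 1 lowest). The points mark the decile of each Hes or Hey gene only, filled where it has such a region; in decile 9 the bar stands at 74.9%, and Hes1 and Hes5 are open and Hey2 filled.

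The Rbpj letters GTGGGAA were searched on both strands in 300 bp at the center of each region. They occurred in 4 of 11 member windows (36.4%, interval 10.9 to 69.2%), compared with 5.96% of all 17164 regions. The Hes5 window printed above was among them, and the others belonged to Hey1. The interval treats windows as independent, which windows of the same gene are not. None of the 4 Hey2 windows held the letters. Allowing any base at the fourth position (GTGNGAA) added no member window, while the share of all regions was 13.4%. The longer form CGTGGGAA, a search added once results had been seen, occurred in 3 of 11 member windows, compared with 0.961% of all regions. These 3 were among the 4 windows above, that of Hes5 included.

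In the whole of each region, 7 of 11 member regions held GTGGGAA, compared with 23.7% of all regions. Longer sequence holds more matches, and among regions of at least the median width of 1123 bp the share was 29.3%, with 5 of 7 members. The Hey2 promoter region had 3 matches, the closest 501 bp from its midpoint, and the 3 distal Hey2 regions had 0. A match of letters is a description and not evidence that Rbpj was bound.

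Upstream of the start, 3 of the 5 RefSeq promoters of this family held GTGGGAA within 250 bp, compared with 5.38% of 20488 promoters of coding genes. Hes5 had 2 matches, in opposite orientation, at 226 to 220 and 83 to 77 bases upstream of the start. Hes7 had 1 at 180 to 174 bases, and Hey2 had 1 at 207 to 201 bases, which overlapped the TEAD letters GGAATG. Neither Hes6 promoter had one. Of the 3 promoters with a match, only that of Hey2 lay in an accessible region of the list. A close head-to-head pair of GTGNGAA sites, with 14 to 18 bases between them, was found in none of these 5 promoters and in 0.015% of all promoters. It was found in 0 of 11 member windows, compared with 0.0117% of all regions. No RefSeq promoter of Hes1, Hey1 or Heyl was matched, so none of theirs was searched.

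Other letters were searched in the same windows. CTAATG occurred in 2 of 11 member windows, those of Hes1 and Hes5, compared with 6.84% of all regions, and thus in 2 of 8 member windows beyond 10 kb, compared with 12.0%. GATAAG, bound by GATA factors, occurred in 1 window, the Hey2 region at -226195 bp, compared with 6.48%. GGAATG occurred in 1, the Hey1 region at -100022 bp, compared with 15.4%. Of the sites that Hes and Hey proteins bind, CACGTG was in 1 window (6.5% of all regions), CACGNG in 4 (32.7%) and the N box CACNAG in 5 (43.3%). CACGTG is also a match to CACGNG.

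The rest of the Notch pathway was examined in 7 lists by role, of 43 genes in all, of which 29 (67.4%) were assigned a region. A region at the start, within 1 kb, was present in 24 (55.8%). Over all coding genes these shares were 49.3% and 40.6%, and the counts by role below stand beside the same shares. The receptors Notch2, with 4 regions, and Notch3, with 1, had an open promoter, and Notch1 and Notch4 had no region. Among the ligands, Jag1 had 8 regions and Jag2 had 1, whereas the Delta-like genes Dll1, Dll3 and Dll4 had none. Of the 4 genes of the nuclear complex, all had a region. Rbpj and Maml1 had 1 each at the start, and Maml2 and Maml3 had 3 and 5 regions, with none within 1 kb.

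Genes for receptor cleavage were open at the start in 6 of 7 cases, each with 1 region, and the exception was Psenen. Modulators of the pathway had an open start in 8 of 12, with 2 regions at most, in Dtx4, Nrarp and Numbl. Among the genes listed as corepressors, 5 of 6 had a region and Tle1 had the most, with 9. Of the further family members Hes2, Hes3, Helt, Bhlhe40 and Bhlhe41, only Bhlhe40 and Bhlhe41 had a region, 1 each. The family itself, with 5 of 7 genes and a median of 1 region per gene, was close to the 43 pathway genes, whose median was also 1.

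**Figure D4:**
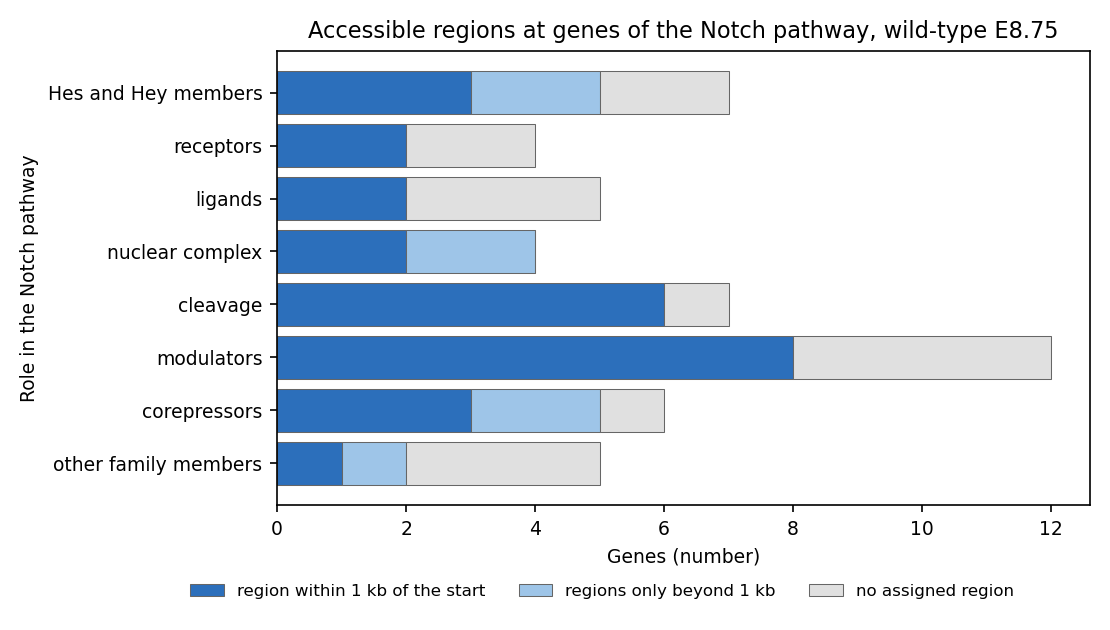
Number of genes (x axis) in the Hes and Hey family and in each role of the Notch pathway (y axis), divided into genes with a region within 1 kb of the start, genes with regions only beyond 1 kb, and genes with no assigned region. The family splits 3, 2 and 2, and the 7 cleavage genes split 6, 0 and 1.

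Marker genes of the dissected tissue and of neighboring tissues were checked in the same list, in which 49.3% of all coding genes had a region. Of the pharyngeal mesoderm and second heart field markers 6 of 8 had a region, with Isl1 at 9, and Tbx1 and Fgf8 had none. Heart muscle markers had a region in 1 of 10, Gata4, and Nkx2-5, Tbx5, Hand1, Myh6, Myh7, Tnnt2, Actc1, Myl7 and Nppa had none. Hearts were part of the dissected tissue, and here too a missing region does not show closed chromatin. Neural tube markers had one in 3 of 4, endothelial markers in 3 of 4, endoderm markers in 2 of 3, blood markers in 1 of 3 and presomitic and somite markers in 0 of 5. These counts take regions at any distance. A region within 1 kb of the start was present in 40.6% of all coding genes. It was found in 5 of 8 pharyngeal and second heart field markers, 0 of 10 heart muscle and 2 of 4 neural tube markers. For endothelium it was 1 of 4, for endoderm 0 of 3, for blood 0 of 3 and for presomitic mesoderm and somite 0 of 5. The part of these tissues in the pattern at Hes and Hey genes was not tested.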

How the data were processed

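ATAC-Seq libraries were grouped by the genotype in their titles and labels. Per the study's methods, the authors aligned reads to mm9 with bowtie2, filtered alignments with samtools, discarded duplicates with Picard 1.136, called peaks in each library with MACS14 and, with bedtools 2.15, took out blacklisted regions and retained those shared by all replicates (minimum overlap 1 bp). The deposited columns are positions, an assigned gene and a signed distance in bp, and how genes were assigned is described for ChIP-Seq peaks only. Since 1 region gets 1 gene, the assigned gene need not be the one it acts on. Peaks were called with a fixed shift and no offset for the transposase cut is described, so edges are approximate. The intersection setting used returns whole peaks of 1 input, so a width is not the stretch shared by all libraries, and it can vary with depth, which is unknown. No column of values was left unmapped (0 columns). Some sequences of member regions are not reported here.

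Positions were taken as 1-based, and rows with the same position were counted once. The RefSeq gene table (GRCm38.p6, used for names and gene types only) held 11161 of the 11541 listed transcripts under their accession, a further 359 under the symbol and 15 under a synonym, and 6 had no match. Coding genes were those with a curated RefSeq transcript. Gene structure and sequence came from NCBIM37, the build of mm9, with its GENCODE annotation, and no region ended beyond its chromosome (0 regions). CpG frequency was the highest over the starts of a gene. Intervals are exact (Clopper-Pearson) at the 95% level. The motif search was tested on simulated sequence. Python 3.11.15, pandas 2.3.3, pysam 0.24.0 and scipy 1.17.1 were used.

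The genes, lists and motifs were chosen with earlier results of these data known. All 7 genes were named with every region, and in each pathway role the gene with the most regions was named. Genes further named for having no region, or an open start, were chosen after their values were seen. Alternatives were wider regions only, all rows, other distances and windows, other letters and assignment by GENCODE starts, and 2 more, assignment to coding starts only and the letters CGTGGGAA, were chosen after seeing the data.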

Additional observations from a re-analysis of the deposited data

How the results depend on the processing

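Of 23 alternative values, 18 were counted as unmoved. For a count this meant within 1.5 times the main count, and for the median width the same value. For the share of regions with Rbpj letters it meant within the interval of that share, which is wide. The whole-region share of 63.6% therefore counted as unmoved from 36.4% in the central windows. When regions narrower than the median were dropped, 3 of the 5 genes with a region (Hes6, Hey1 and Hey2) and 7 of the 11 regions were left. Assignment to the nearest GENCODE start of any gene type left 4 regions, because the nearest starts of the distal Hey1, Hey2 and Hes1 regions then belonged to small noncoding RNA genes. With coding genes only, the count was again 11 regions in 5 genes. Counting every region within 100 kb of a start, whatever its symbol, gave 27. With a center within 500 bp of the TSS, the Hey2 promoter region dropped out and the median width of promoter regions was 1618 bp, compared with 1884 bp. No paired analysis was possible because only 1 merged list, shared by the wild-type replicates, was analyzed. Omitting a library in turn could not be done either. Unknown depth limits each width and each gene without a region.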

Other observations

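The letters CGTGGGAA, searched after results had been seen, were also present upstream of Hey2, 207 to 200 bases from the start, and in 0.776% of the 20488 coding promoters.

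Both Hes6 and Hes7 had a circadian period gene as a neighbor. The start of Per2 lay 45290 bp from the nearest annotated start of Hes6 and carried a region centered 121 bp upstream of its own TSS. The nearest annotated start of Per1 lay 19882 bp from that of Hes7. The region closest to Hes7 was centered 3952 bp upstream of the assigned Per1 start, which is a different start. Relative to Hes7 this region was centered at -25.4 kb, and an annotated start of a coding gene lay beside it at -25.187 kb.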
